A study of Mus musculus with 2 samples.

Results

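The genes described here are 32 genes of glucose uptake, glycolysis and the response to low oxygen, out of 32285 genes in a single-cell RNA matrix of mouse knee joints. They were found by their symbols. Aldoa has a second row under the same symbol, with 54 UMIs (unique molecular identifiers, each standing for 1 captured transcript) in all barcodes, so the 32 genes fill 33 rows, and 32 rows had enough UMIs for the comparisons below. The joints came from Col12a1 knockout (KO) pups and wild-type (WT) pups of both sexes at postnatal day 7, and Col12a1 encodes the fibril-associated collagen XII. Joints without skin and paws were digested for 6 h with collagenase II at 4 mg/mL, and the labels describe 2 experiments, with 3 libraries per genotype in all. The deposited matrix merges both genotypes into 1 table, and the number of pups behind it was not given in the sources used here. Its barcodes end in 1 or 2, and no label used here ties either barcode set to a genotype or an experiment. KO and WT cells could therefore not be set against each other, the Col12a1 counts could not check the genotype labels, and every level below comes from 1 merged sample, or from 1 barcode set of unknown genotype, without replicates.

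Cells take up glucose through facilitative transporters and break it down to pyruvate through a chain of enzymes in the cytosol, and pyruvate is either reduced to lactate or oxidised in mitochondria. When oxygen is low, prolyl hydroxylases can no longer mark the transcription factor HIF-1alpha for destruction, and it switches on glucose transporters, glycolytic enzymes, mitophagy genes and its own hydroxylases. Growing cartilage has no blood vessels, its chondrocytes are known to rely on glycolysis and on HIF-1alpha for survival, and bone, fibrous tissue and marrow are vascular.

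Of 24203 barcodes, 15171 cells passed minimums of 500 genes and 1000 UMIs and a maximum of 10% mitochondrial UMIs (8013 in set 2 and 7158 in set 1, with median depths of 9623 and 10960 UMIs). The 2 sets shared 14 barcode sequences among these cells. Clustering without the 32 genes gave 33 clusters, named from marker genes as 17 classes, with 3 clusters left unnamed. The chondrocyte-like class held 1362 cells (8.98%) in 2 clusters. The cluster led by Matn1, Snorc and Matn3 held 677 cells, and in it Col2a1, the main cartilage collagen, stood at 53455 CPM (UMIs per 1000000 UMIs of the class) and Col10a1, the collagen of hypertrophic cartilage, at 305 CPM. The cluster led by Msmp, Cytl1 and Prg4 held 685 cells, with Col2a1 at 28399 CPM and Col10a1 at 0.246 CPM. Prg4, the lubricin gene and a marker of synovial lining, stood at 6957 CPM there and no chondrocyte marker was among its 10 leading genes, so values of both clusters are given beside those of the class. The classes set against chondrocytes were osteoblast-like cells (567), fibroblast-like cells (3368) and blood cells (4894), the last joining the neutrophil-like class, the erythroid-like class and the B cell-like class. With another clustering seed the osteoblast-like class held 326 cells and the fibroblast-like class 2091. Col2a1 was read at 210 CPM in blood cells (406.5 in set 2 and 56.5 in set 1), which is 0.501% of its chondrocyte-like level. Globin transcripts made up 7116 CPM of the chondrocyte-like class (3880 in set 2 and 9712 in set 1). UMIs from free RNA or mixed droplets are therefore present in every class, in amounts that differ between the sets.

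Stretches of 60 bases upstream of 6 of the genes are shown because these genes differed between the cell classes or barcode sets below and their promoters hold the letters that HIF binds. They come from RefSeq (GRCm38.p6, the NCBI name of mm10) and are written 5′ to 3′ on the strand of the gene, with matches to ACGTG or GCGTG, on either strand, in capitals.
Slc2a1: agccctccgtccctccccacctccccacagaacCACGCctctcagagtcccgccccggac
Bnip3: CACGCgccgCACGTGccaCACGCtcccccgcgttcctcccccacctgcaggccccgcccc
Egln3: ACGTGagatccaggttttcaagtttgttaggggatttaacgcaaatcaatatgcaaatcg
Adm: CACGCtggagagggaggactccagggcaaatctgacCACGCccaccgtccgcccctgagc
Pfkp: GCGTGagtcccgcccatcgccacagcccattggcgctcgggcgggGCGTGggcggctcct
Pgk1: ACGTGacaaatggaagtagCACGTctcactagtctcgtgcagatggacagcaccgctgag

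In the order shown, the stretches lie at chr4:119108651-119108710 (plus strand), chr7:138909564-138909623 (minus), chr12:54204044-54204103 (minus), chr7:110627567-110627626 (plus), chr13:6648780-6648839 (minus) and chrX:106186950-106187009 (plus). Of the 32 genes, 28 were in the promoter table; Slc2a3, Epas1, Bnip3l and Ndrg1 were not. Within 250 bases upstream of the start, 23 of the 28 held at least 1 match (82.1%), against 38.6% of all 32851 promoters in the table. The first share takes 1 promoter per gene, the nearest to its annotated 5′ end. The second takes every promoter listed, so the units differ. The promoters were not matched for base composition either, and every match contains the letters CG. The E-box letters CACGTG, bound by other factors as well, count as a match on each strand and were present in 5 of the 28. Bnip3 and Ldha had 5 matches each, Ankrd37 and Slc16a1 had 4 each, and Aldoa, Gpi1, Hk1, Pkm and Tpi1 had none in this window. For Ankrd37, Hif1a and Ldha the RefSeq start lies 4329 bases or more from the 5′ end of the gene in the annotation of the matrix. A match describes the letters and not a bound site.

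Against osteoblast-like cells the 32 rows differed little as a group, and against fibroblast-like cells most of them were higher in chondrocyte-like cells. A row was called when both classes together had at least 100 UMIs, the CPM ratio reached 2 or 0.5, its exact 95% interval left out 1, and both barcode sets gave the same direction. Against osteoblast-like cells 6 of 32 rows were called higher in chondrocyte-like cells (8.83% of 11682 genes were) and 1 of 32 lower (14.8%). The median log2 ratio was 0.15, against -0.11 over all genes tested. Rows above osteoblast-like cells in set 2 but below them in set 1 included Ankrd37, Bnip3, Egln1, Egln3, Gpi1, Ldha, Pdk1, Pfkfb3, Slc16a3 and Tpi1. Against fibroblast-like cells 21 of 32 were higher (12.4% of 13499 genes) and 1 lower (18.5%), with a median of 1.27 against -0.06. Against blood cells 17 of 32 were higher (30.4% of 13278 genes) and 2 lower (25.6%), with a median of 1.22 against 0.19. All intervals cover counting error only, and fewer RNA molecules per cell and a smaller share of total RNA cannot be told apart on this scale.

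With the cluster led by Matn1 alone, 4 rows were higher than in osteoblast-like cells (908 of 10843 genes were) and 0 lower (2055), 19 were higher than in fibroblast-like cells (1576 of 13132 genes) and 1 lower (2987), and 17 were higher than in blood cells (3510 of 12731 genes) and 2 lower (3706). With the cluster led by Msmp alone, in which 31 rows had enough UMIs, 6 rows were higher than in osteoblast-like cells (814 of 10639 genes) and 2 lower (1484), 19 higher than in fibroblast-like cells (1430 of 12978 genes) and 2 lower (2342), and 15 higher than in blood cells (3777 of 12595 genes) and 1 lower (3169). Hif1a, Pfkp and Slc2a1 were called higher than in osteoblast-like cells in both clusters. With the cluster led by Matn1 alone, Car9, Epas1 and Slc2a3 were not called against osteoblast-like cells, nor Hif1a and Hk1 against fibroblast-like cells. Taking the cluster led by Msmp alone, Gapdh was not called against fibroblast-like cells, nor Tpi1 and Bnip3l against blood cells, and Aldoc had too few UMIs. Without barcode set 2 the count against fibroblast-like cells was 13, and without set 1 it was 23.

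**Figure D1:**
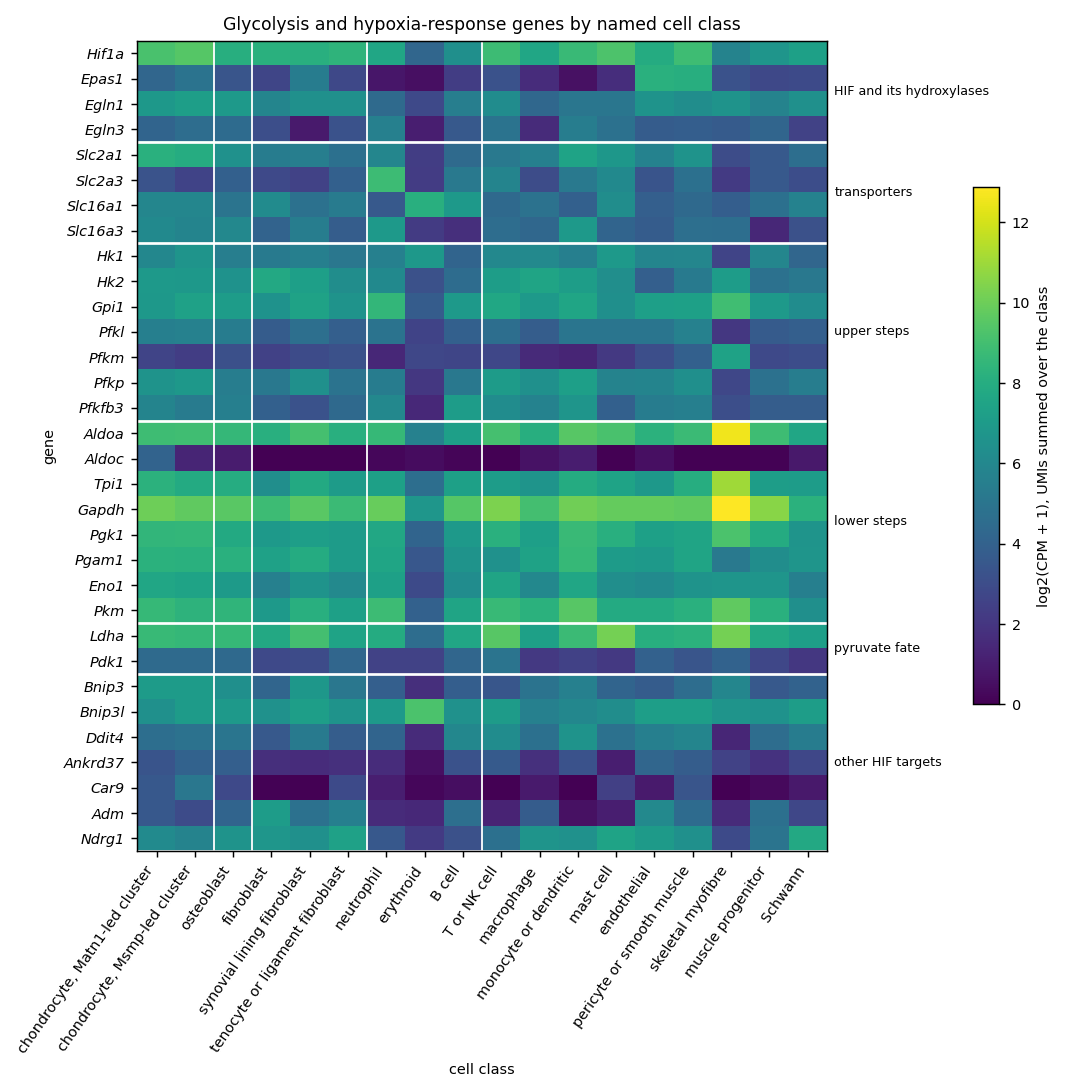
Levels of the 32 genes (rows, grouped by role) in 16 other named cell classes and both chondrocyte-like clusters (columns), as log2(CPM + 1) of UMIs summed over each class. Skeletal myofibre-like cells are brightest for Aldoa and Gapdh, neutrophil-like cells for Slc2a3, erythroid-like cells for Bnip3l, and the chondrocyte-like clusters for Slc2a1.

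Among the regulators, both HIF alpha subunits were higher in chondrocyte-like cells than in all 3 comparison classes. Hif1a, the oxygen-labile subunit of HIF-1, had 632 CPM (95% interval 623 to 642) in chondrocyte-like cells (629 in set 2 and 635 in set 1), against 263 CPM in osteoblast-like, 290 CPM in fibroblast-like and 124 CPM in blood cells. The ratios were 2.40 (2.32 to 2.497), 2.18 (2.14 to 2.23) and 5.10 (4.94 to 5.26). This was the highest Hif1a level of the 20 classes, though its interval overlapped that of mast cell-like cells at 619 CPM. Hif1a stood at 574 CPM in the cluster led by Matn1 and 701 CPM in the cluster led by Msmp, and with the first cluster alone the ratio to fibroblast-like cells was not called. Within the comparison classes levels were uneven. The neutrophil-like cluster led by Asprv1 stood at 530 CPM, the other neutrophil-like clusters at 65.7 to 106.5 CPM, and erythroid-like cells at 17.9 CPM. The fibroblast-like cluster led by Cxcl5 stood at 404 CPM and that led by Abca8a at 147.5 CPM. An unnamed cluster led by S100a4 and Msmp stood at 474 CPM.

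Epas1, which encodes HIF-2alpha, was at 23.0 CPM in chondrocyte-like cells, against 9.41 CPM in osteoblast-like, 5.497 CPM in fibroblast-like and 1.22 CPM in blood cells. Its highest levels were elsewhere, at 286 CPM in endothelial-like cells and 268 CPM in pericyte-like or smooth muscle-like cells. With the cluster led by Matn1 alone (18.0 CPM) Epas1 was not called against osteoblast-like cells. Of the UMIs of Hif1a and Epas1 together, Epas1 made up 3.51% in chondrocyte-like cells (3.24% to 3.80%) and 53.9% in endothelial-like cells. These are 3′ tags, which count transcripts and need no length scaling, but capture can differ between genes, so such shares are compared across classes only.

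Of the 3 prolyl hydroxylases that target the HIF alpha subunits, Egln1 and Egln3 were called higher in set 2 than in set 1 of chondrocyte-like cells. Egln2, which is not among the 32 genes, ran the other way, at 14.0 CPM in set 2 against 22.0 CPM in set 1, a ratio of 0.637 (0.525 to 0.771) that was not called. Egln1 had 192 CPM in set 2 and 80.5 CPM in set 1 of chondrocyte-like cells, against 125 and 115 CPM in osteoblast-like cells. Over both sets its ratio to osteoblast-like cells was 1.09 (1.03 to 1.16), made of 1.53 in set 2 and 0.702 in set 1. Egln3, itself a HIF target, had 30.9 CPM in set 2 and 10.4 CPM in set 1 of chondrocyte-like cells, against 16.8 and 25.1 CPM in osteoblast-like cells. The direction of both differences from osteoblast-like cells therefore changed with the set. Against fibroblast-like cells both genes were called higher, by 2.27 (Egln1) and 2.56 (Egln3). Neutrophil-like cells had the highest Egln3 level, 48.4 CPM, with an interval that met that of monocyte-like or dendritic-like cells.

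The transporters split by cell type. Slc2a1 encodes GLUT1, the glucose transporter of most tissues, and had 270 CPM (264 to 276) in chondrocyte-like cells, 407 in set 2 and 160 in set 1. In the same order of sets, its level was 65.9 and 104 CPM in osteoblast-like cells and 34.6 and 37.1 CPM in blood cells. Fibroblast-like cells stood at 40.2 CPM in set 2 against 41.7 CPM in set 1. Chondrocyte-like cells were above the other 3 in both sets. The ratio to osteoblast-like cells was 3.02 (2.83 to 3.22) over both sets, but 6.17 in set 2 and 1.54 in set 1. The ratio was 6.60 to fibroblast-like and 7.49 to blood cells. Blood cells were uneven, with 162 CPM over both sets in the neutrophil-like cluster led by Asprv1 and 3.97 CPM in erythroid-like cells. The first value is near that of chondrocyte-like cells in set 1.

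Slc2a3, which encodes the neuronal and leukocyte transporter GLUT3, had 7.14 CPM in chondrocyte-like cells, against 14.3 CPM in osteoblast-like, 6.13 CPM in fibroblast-like and 248 CPM in blood cells. It was 34.6-fold lower in chondrocyte-like than in blood cells. Its call against osteoblast-like cells rests on a ratio of 0.498, just past the threshold, and the ratio was 0.580 in set 2 and 0.398 in set 1. Neutrophil-like cells held most of it, with 449 CPM over the class and 1482 CPM in the neutrophil-like cluster that it leads. Of Slc2a1 and Slc2a3 UMIs together, Slc2a3 made up 2.58% in chondrocyte-like cells (2.23% to 2.97%), 13.8% in osteoblast-like cells and 88.5% in neutrophil-like cells.

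The lactate transporters showed no called difference from osteoblast-like cells. Slc16a3 encodes MCT4, the exporter of strongly glycolytic cells, and had 62.0 CPM in chondrocyte-like cells, against 63.8 CPM in osteoblast-like, 16.0 CPM in fibroblast-like and 67.1 CPM in blood cells. It was called higher than in fibroblast-like cells (3.87-fold, 3.57 to 4.19). Its difference from osteoblast-like cells changed direction with the set. Chondrocyte-like cells had 86.9 CPM against 60.6 CPM in set 2, and 42.0 CPM against 65.8 CPM in set 1. Slc16a1 encodes MCT1, which carries lactate in both directions, and had 59.7 CPM in chondrocyte-like cells, against 30.1 CPM in osteoblast-like, 71.7 CPM in fibroblast-like and 107 CPM in blood cells. Its ratio to osteoblast-like cells, 1.98, was just short of 2. Erythroid-like cells had the highest Slc16a1 level, 275 CPM. Slc16a3 made up 50.9% of the UMIs of both genes in chondrocyte-like cells, 68.0% in osteoblast-like cells, 18.3% in fibroblast-like cells, 91.7% in neutrophil-like cells and 1.34% in erythroid-like cells.

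Of the 7 genes of the upper steps, from hexokinase to phosphofructokinase and its activator, Pfkp was the only gene called against osteoblast-like cells. Pfkp encodes the platelet-type phosphofructokinase, the enzyme that commits sugar to glycolysis, and had 106 CPM in chondrocyte-like cells, against 42.5 CPM in osteoblast-like, 34.6 CPM in fibroblast-like and 29.2 CPM in blood cells. The ratio to osteoblast-like cells was 2.49 (2.27 to 2.74), with 2.94 in set 2 and 2.09 in set 1. Pfkl, the liver-type subunit, had 47.7 CPM in chondrocyte-like cells, against 41.0 CPM in osteoblast-like and 12.3 CPM in fibroblast-like cells. Pfkm, the muscle-type subunit, had 4.69 CPM, against 7.87 CPM in osteoblast-like cells. Pfkp made up 66.9% of the phosphofructokinase UMIs in chondrocyte-like cells (65.5% to 68.3%) and 46.5% in osteoblast-like cells (43.6% to 49.5%), whereas Pfkm made up 95.02% in skeletal myofibre-like cells.

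The hexokinases, which trap glucose in the cell, ran in opposite directions against fibroblast-like cells. Hk1 had 78.8 CPM in chondrocyte-like cells, against 37.1 CPM in fibroblast-like cells, a ratio of 2.13 (2.00 to 2.26). Hk2, the inducible isoform and a HIF target, had 119 CPM in chondrocyte-like cells, against 215 CPM in fibroblast-like cells, a ratio of 0.554 that was not called. Hk2 was 60.2% of hexokinase UMIs in chondrocyte-like cells, 85.3% in fibroblast-like cells and 6.81% in erythroid-like cells. Among the fibroblast-like clusters, Hk2 stood at 317 CPM in the cluster led by Cxcl5 and at 65.9 CPM in the cluster led by Abca8a. Hk1 was higher in the chondrocyte-like cluster led by Msmp (99.8 CPM) than in that led by Matn1 (60.7 CPM), though not by enough to be called.

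Pfkfb3 makes fructose 2,6-bisphosphate, which activates phosphofructokinase. It had 48.5 CPM in chondrocyte-like cells, against 45.3 CPM in osteoblast-like, 14.5 CPM in fibroblast-like and 58.0 CPM in blood cells, and its highest level was in B cell-like cells, at 136 CPM. Gpi1, the isomerase between hexokinase and phosphofructokinase, had 136 CPM in chondrocyte-like cells, against 138 CPM in osteoblast-like cells, and was called in none of the 3 main comparisons. For both genes the difference from osteoblast-like cells changed direction with the set. Pfkfb3 had 73.05 against 57.25 CPM in set 2 and 28.82 against 37.95 CPM in set 1. Gpi1 had 172 against 134 CPM in set 2 and 107 against 140 CPM in set 1.

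**Figure D2:**
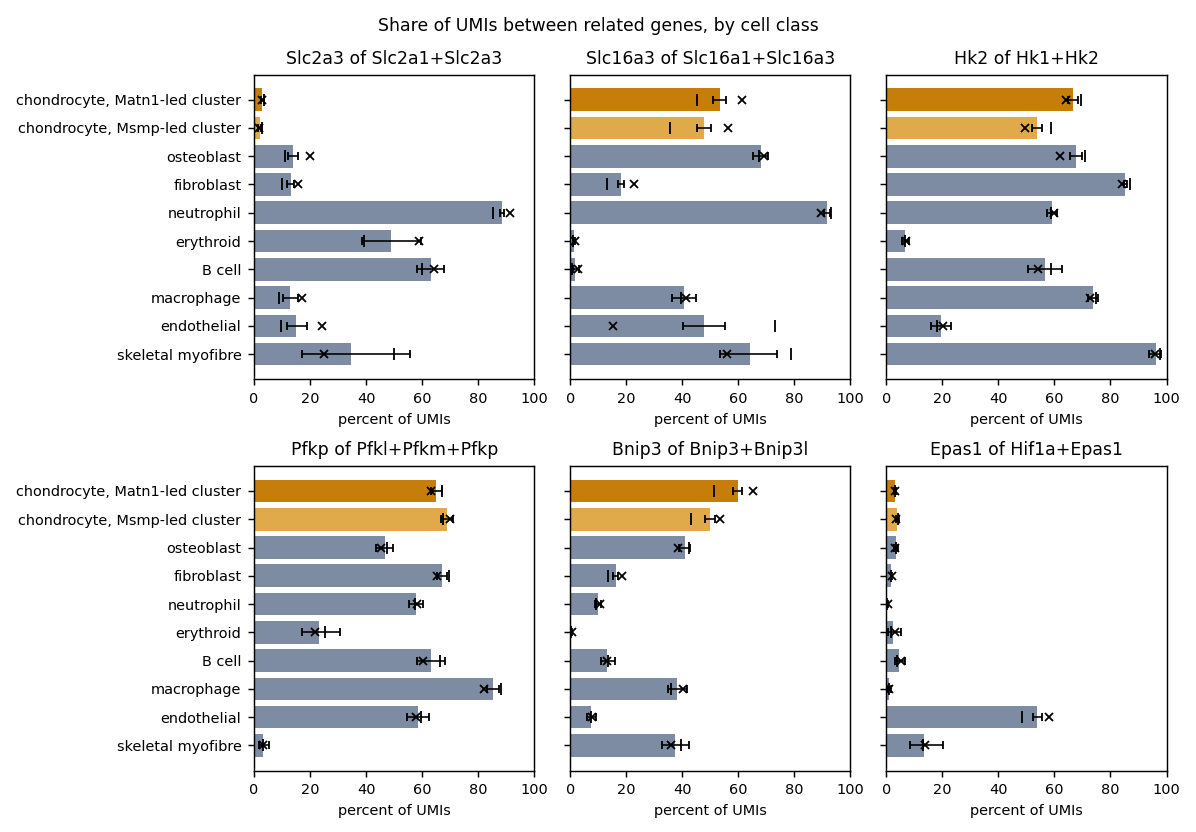
Share of UMIs taken by the named gene among related genes (x axes, percent), in both chondrocyte-like clusters and 8 other classes (y axes). Bars are the share over both barcode sets with exact 95% intervals, crosses set 2 and ticks set 1. Slc2a3 is at 2.99% and 2.01% in the clusters led by Matn1 and by Msmp and at 88.5% in neutrophil-like cells.

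The enzymes of the lower steps were higher in chondrocyte-like than in fibroblast-like cells for 6 of the 8 genes with enough UMIs, and against osteoblast-like cells only Aldoc was called. Pgk1, phosphoglycerate kinase, had 360 CPM in chondrocyte-like cells, against 223 CPM in osteoblast-like, 121 CPM in fibroblast-like and 137 CPM in blood cells. Tpi1, triose phosphate isomerase, had 275 CPM, against 246, 80.6 and 120 CPM in the same 3 classes. Eno1, enolase, had 186 CPM, against 128, 47.3 and 98.2 CPM. The ratios to fibroblast-like cells were 2.99 for Pgk1, 3.41 for Tpi1 and 3.94 for Eno1. Against osteoblast-like cells Tpi1 had 360 against 274 CPM in set 2 but 206 against 228 CPM in set 1.

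Gapdh, the dehydrogenase often used as a reference gene, had 947 CPM in chondrocyte-like cells, against 769 CPM in osteoblast-like, 458 CPM in fibroblast-like and 652 CPM in blood cells. It was called against fibroblast-like cells (2.07, 2.03 to 2.10), with 2.49 in set 2 and 1.72 in set 1. Pkm, pyruvate kinase, had 360 CPM, against 338, 119 and 279 CPM in the same 3 classes. Aldoa and Pgam1 were 1.75-fold and 1.79-fold above fibroblast-like cells and were not called. Eno1 and Gapdh have near-identical processed copies in the genome, so their counts may be incomplete.

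Aldoc encodes aldolase C, the isoform best known from brain, and had 9.26 CPM (8.14 to 10.5) in chondrocyte-like cells, against 0.973 CPM in osteoblast-like cells, 0.0164 CPM (1 UMI) in fibroblast-like cells and 0.220 CPM in blood cells. The ratio to osteoblast-like cells was 9.52 (5.35 to 18.7). The level sat almost wholly in the cluster led by Matn1, at 15.9 CPM, against 1.56 CPM in the cluster led by Msmp, a ratio of 10.2 (6.37 to 17.2) with 10.6 in set 2 and 10.0 in set 1. Even there it made up 3.24% of the aldolase UMIs, the rest being Aldoa.

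Summed over the 15 enzymes from hexokinase to lactate dehydrogenase, chondrocyte-like cells held 3796 CPM (4553 in set 2 and 3189 in set 1). The sum was 3127 CPM in osteoblast-like cells, 1873 CPM in fibroblast-like cells, 2198 CPM in blood cells and 19468 CPM in skeletal myofibre-like cells. Divided by the sum over 22 nuclear genes of mitochondrial respiration, it was 1.03 in chondrocyte-like cells (1.28 in set 2 and 0.849 in set 1), 0.715 in osteoblast-like, 0.487 in fibroblast-like and 0.670 in blood cells. Chondrocyte-like cells had the highest of these 4 ratios in both sets. Neutrophil-like cells were at 1.06 and monocyte-like or dendritic-like cells at 1.21.

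Of the genes that set the fate of pyruvate, neither was called against osteoblast-like cells. Ldha, the lactate dehydrogenase subunit induced by HIF, had 399 CPM in chondrocyte-like cells, against 389 CPM in osteoblast-like, 215 CPM in fibroblast-like and 169 CPM in blood cells. Pdk1, the kinase that shuts off pyruvate dehydrogenase, had 20.8 CPM, against 20.03, 6.22 and 7.16 CPM in the same 3 classes. Pdk1 was called higher than in fibroblast-like cells (3.35, 2.94 to 3.83) and blood cells (2.91, 2.52 to 3.36), and Ldha higher than in blood cells (2.36, 2.29 to 2.44). For both genes the difference from osteoblast-like cells changed direction with the set. Ldha had 482 against 421 CPM in set 2 and 332 against 369 CPM in set 1. Pdk1 had 27.1 against 22.7 CPM in set 2 and 15.8 against 18.4 CPM in set 1.

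Among the 7 other HIF targets, Car9 alone was called against osteoblast-like cells. Car9 encodes carbonic anhydrase IX, which exports acid from hypoxic cells, and had 21.2 CPM (19.4 to 23.0) in chondrocyte-like cells, 30.3 in set 2 and 13.8 in set 1. It had 6.16 CPM in osteoblast-like cells, 0.0491 CPM (3 UMIs) in fibroblast-like cells and 0.709 CPM in blood cells. The ratio was 3.43 (2.70 to 4.43) to osteoblast-like cells and 431 (147 to 2098) to fibroblast-like cells. The ratio of the cluster led by Matn1 alone to osteoblast-like cells was 1.72 (1.30 to 2.30) and was not called, so that call rests on the cluster led by Msmp (5.44, 4.25 to 7.04). Within the chondrocyte-like class the distribution was opposite to that of Aldoc: 10.6 CPM in the cluster led by Matn1, against 33.5 CPM in the cluster led by Msmp, a ratio of 0.316 (0.261 to 0.382). Aldoc and Car9 were the only rows called between the 2 clusters (5.22% of 10367 genes were higher in the cluster led by Matn1 and 6.14% lower).

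Bnip3 encodes a receptor that marks mitochondria for removal, and had 131 CPM in chondrocyte-like cells, against 84.5 CPM in osteoblast-like, 17.4 CPM in fibroblast-like and 10.4 CPM in blood cells. Chondrocyte-like cells had 199 CPM in set 2 and 76.2 CPM in set 1, and osteoblast-like cells had 75.5 and 90.1 CPM. The ratio to osteoblast-like cells was thus 2.63 in set 2 and 0.846 in set 1, and it was not called. Its relative Bnip3l, which clears mitochondria from maturing red cells, was lower in chondrocyte-like than in blood cells, at 108 CPM against 257 CPM. Erythroid-like cells had 604 CPM of Bnip3l, and 1267 CPM in the erythroid-like cluster led by Xpo7. Bnip3 was 54.7% of the UMIs of both genes in chondrocyte-like cells, 40.9% in osteoblast-like cells, 16.2% in fibroblast-like cells and 0.376% in erythroid-like cells.

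Adm, the gene of the vasodilator adrenomedullin, was the only row called lower than in fibroblast-like cells. It had 8.85 CPM in chondrocyte-like cells, against 136 CPM in fibroblast-like cells, and was 15.4-fold lower in chondrocyte-like cells (13.5-fold to 17.6-fold). In the fibroblast-like cluster led by Cxcl5, the cluster that also had the most Hk2, Adm stood at 213 CPM. Ndrg1, a stress-induced gene also needed by Schwann cells for myelin, had 62.7 CPM in chondrocyte-like cells, against 95.4 CPM in osteoblast-like, 106 CPM in fibroblast-like and 8.09 CPM in blood cells, with 220 CPM in Schwann-like cells. Ddit4, which restrains the growth kinase mTORC1, had 25.6 CPM, against 30.9 CPM in osteoblast-like and 11.2 CPM in fibroblast-like cells. Ankrd37, a small HIF target, had 12.02 CPM, against 14.0 CPM in osteoblast-like and 2.27 CPM in fibroblast-like cells. Its difference from osteoblast-like cells changed direction with the set. Chondrocyte-like cells had 22.2 CPM against 12.1 CPM in set 2, and 3.88 CPM against 15.2 CPM in set 1.

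**Figure D3:**
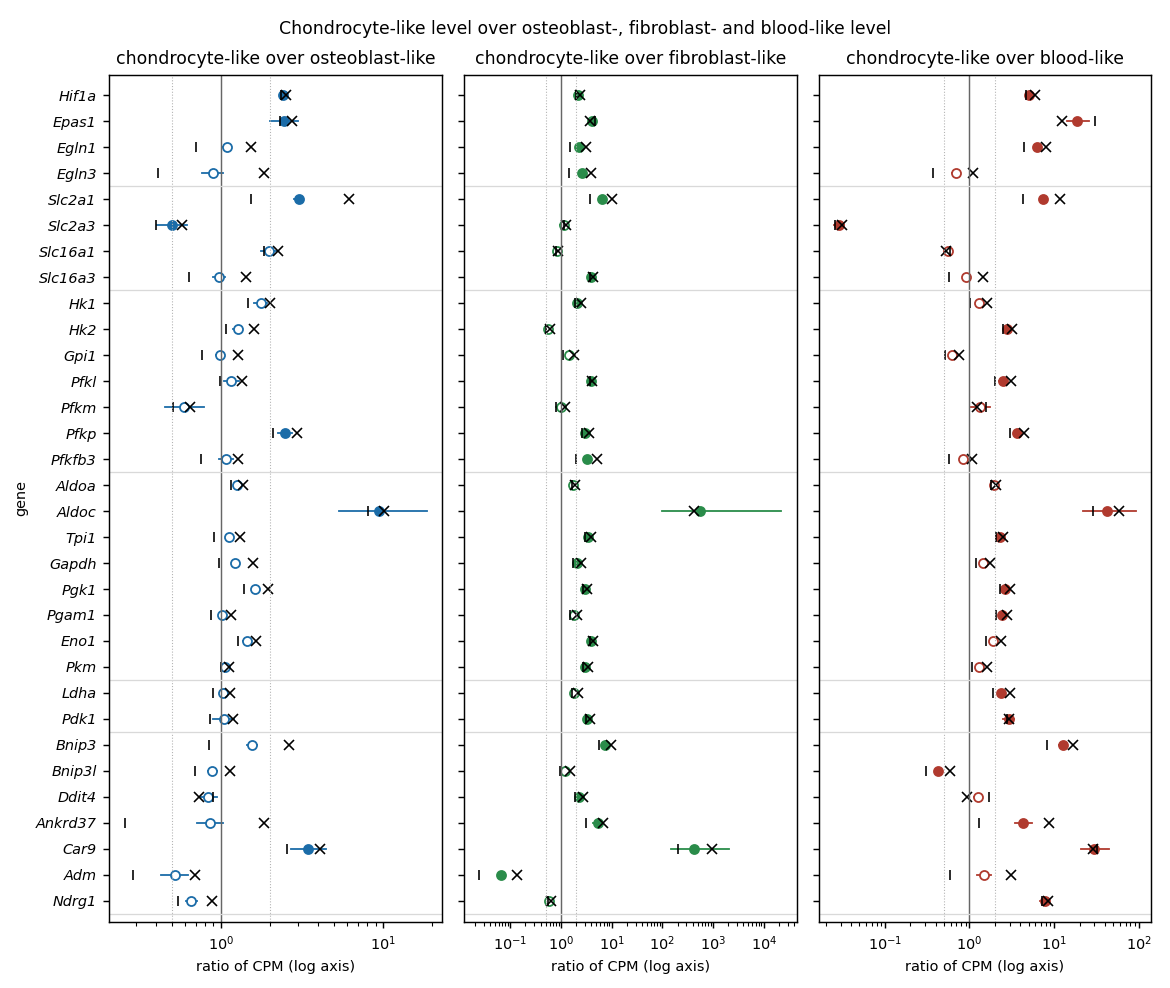
CPM in chondrocyte-like cells over CPM in osteoblast-like, fibroblast-like and blood cells (x axes, log scales of different range) for the 32 genes (y axis). Circles are both barcode sets with exact 95% intervals, filled where called, crosses are set 2 and ticks set 1, dotted lines mark 0.5 and 2. Crosses lie right of ticks for most genes, widely so for Slc2a1, Bnip3 and Ankrd37 against osteoblast-like cells.

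Across all 20 classes, chondrocyte-like cells had the highest level for 6 of the 33 rows (Hif1a, Egln1, Slc2a1, Aldoc, Bnip3 and Car9). Skeletal myofibre-like cells were highest for 8, among them Aldoa (6273 CPM), Gapdh (7482 CPM), Tpi1 (2131 CPM) and Pfkm (169 CPM), and monocyte-like or dendritic-like cells for 5. Erythroid-like cells were lowest for most of the chain, with Gapdh at 108 CPM and Pkm at 14.8 CPM. Globin transcripts made up 401637 CPM of erythroid-like cells and 132453 CPM of blood cells, which lowers the CPM of every other gene there. With set 1 alone, the chondrocyte-like class kept 1 first place, that of Aldoc. In that set Egln1 and Bnip3 were highest in osteoblast-like cells.

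Blood cells were not uniform. Against neutrophil-like cells 14 rows were higher in chondrocyte-like cells (39.0% of 12253 genes) and 3 lower (20.6%): Slc2a3, Egln3 and Gpi1. Against erythroid-like cells 27 were higher (60.1% of 11280 genes) and 2 lower (14.5%): Bnip3l and Slc16a1. Against B cell-like cells 18 were higher (23.3% of 11845 genes) and 4 lower (31.9%): Ddit4, Pfkfb3, Slc16a1 and Slc2a3.

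More rows were called between the barcode sets of chondrocyte-like cells than between the 2 clusters. In the cluster led by Matn1, 11 of 31 rows with enough UMIs were called higher in set 2 than in set 1 (3.22% of 8531 genes) and 0 lower (4.56%), and 28 had a ratio above 1. In the cluster led by Msmp, 7 of 28 were higher (1.75% of 8362 genes) and 0 lower (3.07%), and 26 were above 1. The median log2 ratio was 0.66 and 0.55 in these clusters, against -0.06 and -0.10 over all genes. In osteoblast-like cells 0 of 29 rows were higher (1.51% of 8982 genes) and 0 lower (1.61%), and in fibroblast-like cells Ankrd37 alone of 30 was higher (0.990% of 12420 genes) and 0 lower (1.28%). In erythroid-like cells Aldoa, Ldha and Pkm were higher, 3 of 12 rows with enough UMIs (272 of 5589 genes were), and 0 were lower. There 10 rows were above 1, and the median log2 ratio was 0.72, against 0.26 over all genes. A median of this size was therefore not limited to chondrocyte-like cells. In erythroid-like cells, however, the median over all genes was also raised, and globin stood at 364530 CPM in set 2 against 428793 CPM in set 1. Aldoa, Ldha and Pkm were not called between the sets of chondrocyte-like cells. B cell-like cells went the other way, with a median of -0.37 against 0.06 and Adm called lower. Adm was called higher in macrophage-like cells, and Slc2a3 in the tenocyte-like or ligament fibroblast-like class. Between sets a call needs 100 UMIs, a ratio that reaches 2 or 0.5, and an interval that leaves out 1. Calls between the clusters also need the same direction in both sets, so that rule is stricter. Over the whole class, 10 of 32 rows were higher in set 2 (2.40% of 10367 genes) and 0 lower (3.45%).

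Slc2a1 had 439 CPM in set 2 and 175 CPM in set 1 of the cluster led by Matn1, and 372 and 142 CPM in the cluster led by Msmp. Bnip3 had 198 and 78.9 CPM in the first cluster and 199 and 72.9 CPM in the second. Egln1, Egln3, Pfkfb3 and Ankrd37 were called in both clusters too, and Ankrd37 showed the widest gap, 29.8 CPM in set 2 against 3.49 CPM in set 1 of the cluster led by Msmp. Adm, with 20.3 CPM in set 2 against 3.59 CPM in set 1, and Car9, with 16.5 against 6.06 CPM, were called in the cluster led by Matn1.

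Of the 15 enzymes from hexokinase to lactate dehydrogenase, Aldoc alone was called between the sets, in the cluster led by Matn1 (22.7 CPM in set 2 and 10.6 CPM in set 1). Gapdh had ratios of 1.57 and 1.47 between set 2 and set 1 in the clusters led by Matn1 and by Msmp, and Ldha had 1.53 and 1.36. Hif1a itself had ratios of 0.8998 and 1.07. The ratio of Slc2a1 between set 2 and set 1 of osteoblast-like cells was 0.633 (0.554 to 0.723), which was not called.

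**Figure D4:**
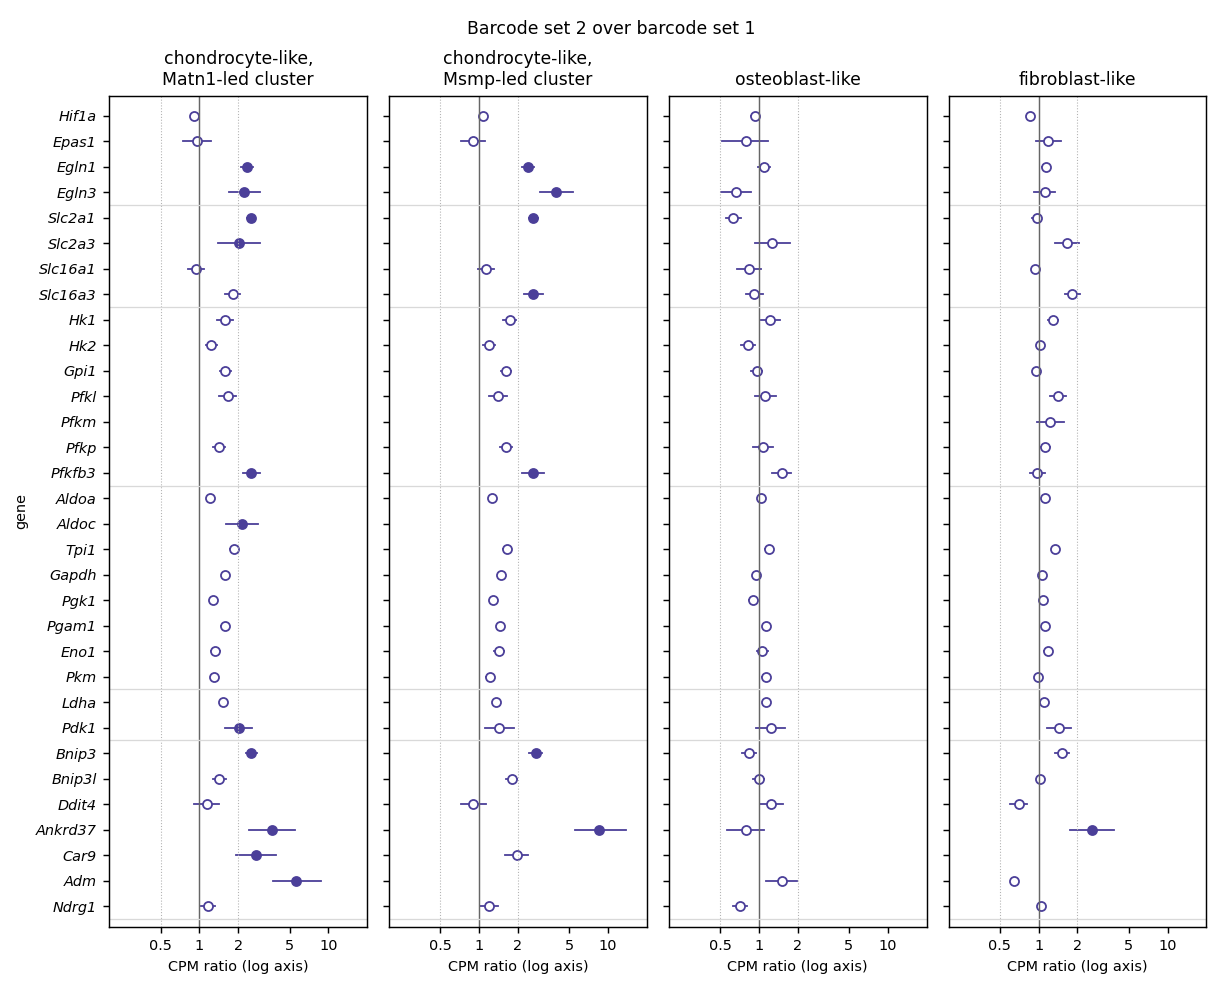
CPM in barcode set 2 over CPM in barcode set 1 (x axes, log scale) for the 32 genes (y axis) in both chondrocyte-like clusters, osteoblast-like cells and fibroblast-like cells. Points carry exact 95% intervals and are filled where called, genes with fewer than 100 UMIs are left out, dotted lines mark 0.5 and 2. Most points lie right of 1 in both chondrocyte-like clusters and close to 1 in the other 2 panels.

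The same UMIs were also read as shares of cells, which adds no separate evidence. Slc2a1 and Bnip3, given here, were already called between the sets, and Hif1a was not. After each cell was thinned to 2000 UMIs, Slc2a1 was detected in 47.4% of chondrocyte-like cells of set 2 and 23.3% of set 1, against 6.72% and 9.66% of osteoblast-like cells. Without thinning the shares were 87.6% and 70.5% of chondrocyte-like cells. In erythroid-like cells, the class with the lowest Slc2a1 level, the thinned share was 0.487% over both sets. The median depth over the whole class was 14702 UMIs in chondrocyte-like cells and 5078 UMIs in erythroid-like cells. Kept cells needed only 1000 UMIs, and a cell below 2000 UMIs cannot be thinned to that depth. The thinned shares may therefore not cover every cell of a class. Bnip3 was detected in 27.6% and 12.6% of chondrocyte-like cells of set 2 and set 1. Hif1a was detected in 61.0% and 66.3%.

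Other measures differed between the sets as well. Globin UMIs were lower in set 2 in both clusters, at 1908 CPM against 7024 CPM in set 1 of the cluster led by Matn1 and at 6051 against 13006 CPM in that led by Msmp. Col10a1 had 419 CPM in set 2 and 218 CPM in set 1 of the cluster led by Matn1, and had 3 UMIs in the cluster led by Msmp. In the cluster led by Matn1, Ihh, the signal of prehypertrophic cartilage, had 12.97 CPM in set 2 against 4.21 CPM in set 1, Prg4 had 79.3 against 199.6 CPM, and the proliferation marker Mki67 had 15.7 against 26.2 CPM, while Top2a, also a proliferation marker, had 31.3 CPM in both. All 12 chondrocyte markers had ratios above 1 in the cluster led by Matn1 (86088 CPM in set 2 and 73421 CPM in set 1, summed) and 9 of 12 in the cluster led by Msmp (40489 and 35143 CPM), and 0 were called in either. The summed level of 16 genes induced by tissue dissociation was 6804 CPM in set 2 and 5315 CPM in set 1 of the cluster led by Matn1, 11833 and 13928 CPM in osteoblast-like cells, and in fibroblast-like cells it was 11502 and 8024 CPM. Of that list Fos, Dusp1, Hspa1a and Hspa1b were called higher in set 2 of the cluster led by Matn1. Mitochondrial transcripts made up 2.39% and 2.04% of UMIs in set 2 and set 1 of that cluster. The part of these differences in the pattern was not tested, and genotype, experiment and library cannot be told apart from the barcode set.

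Of 20 further genes regulated by HIF, 3 were higher in chondrocyte-like than in osteoblast-like cells (Ak4, Higd1a and Tfrc) and 1 was lower (Mxi1), beside 8.83% and 14.8% of all genes, with a median log2 ratio of 0.44 against -0.11 over all genes. Against fibroblast-like cells 10 were higher and 1 lower (12.4% and 18.5% of all genes), and against blood cells 13 were higher and 2 lower (30.4% and 25.6%). Higd1a, a mitochondrial protein of the hypoxia response, had 927 CPM in chondrocyte-like cells, against 382 CPM in osteoblast-like cells. Stc2, a secreted glycoprotein, was 26.9-fold above fibroblast-like cells. Mif, a cytokine gene, had 547 CPM in chondrocyte-like cells, against 414 CPM in osteoblast-like and 192 CPM in fibroblast-like cells. Hmox1, the heme-degrading enzyme, went the other way, at 426 CPM against 1837 CPM in fibroblast-like cells. Between the sets, 6 of the 20 were higher in set 2 of the cluster led by Matn1, among them Hilpda (91.1 CPM in set 2 against 37.9 CPM in set 1), and 5 in the cluster led by Msmp, with Stc2 lower. Of all genes, 3.22% were higher in set 2 of the first cluster, and 1.75% were higher and 3.07% lower in set 2 of the second.

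The shares of all genes called, given above, were 8.83% higher and 14.8% lower against osteoblast-like cells, 12.4% and 18.5% against fibroblast-like cells, and 30.4% and 25.6% against blood cells. Of 22 respiration genes 0 were called against osteoblast-like or fibroblast-like cells and 1, Atp5g1, was higher than in blood cells. Of 15 genes of pyruvate oxidation and the citrate cycle 0 were called in any of the 3 comparisons, and Mdh2 had 106 CPM in chondrocyte-like cells, against 120 CPM in osteoblast-like and 105 CPM in fibroblast-like cells. Of 10 other regulators of the HIF pathway, 8 of which had enough UMIs against osteoblast-like and blood cells, Hif3a alone was called, lower than in fibroblast-like cells. Among 20 further glycolysis rows, 12 of which had enough UMIs, 0 were higher than in osteoblast-like cells and 3 lower (Pdk2, Pdk4 and Pfkfb2), and Ldhb, the heart-type lactate dehydrogenase subunit, was 3.41-fold above fibroblast-like cells. Bpgm, the red cell enzyme that makes 2,3-bisphosphoglycerate, had 11.2 CPM in chondrocyte-like cells, against 230 CPM in blood cells.

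Heat-shock genes of the dissociation list were lower in chondrocyte-like cells than in all 3 comparison classes. Hspa1a, an inducible chaperone, had 183 CPM in chondrocyte-like cells, against 2670 CPM in osteoblast-like, 1707 CPM in fibroblast-like and 1694 CPM in blood cells. Of the 16 genes on the list 1 was higher and 5 were lower than in osteoblast-like cells, beside 8.83% and 14.8% of all genes. The part of tissue digestion in the levels of the 32 genes was not tested.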

How the data were processed

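Per the submitters' processing notes, reads were processed with Cell Ranger 7.0.0 and the mm10 genome, and the authors deposited UMI counts per gene and barcode as 1 merged matrix. Gene positions come from GENCODE M21. The treatment of intronic reads is not stated. Kept cells had 500 or more genes, 1000 or more UMIs and 10% or less mitochondrial UMIs. Counts were scaled to 10000 per cell, and 2000 variable genes, with 1020 genes left out (the 32 genes, companion lists and others), gave 30 components, 15 neighbours and Leiden clusters at resolution 1 (scanpy 1.11.5, leidenalg 0.10.2). Clusters were named from marker lists. Scrublet marked 1 cell among 8014 (set 2) and 2 among 7160 (set 1) and so did not work; only these 3 cells were removed, and other doublets remain among the kept cells.

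UMIs were summed per class, without tests, since the pooled matrix is 1 sample. CPM carry exact Poisson 95% intervals, ratios exact conditional binomial intervals and shares Clopper-Pearson intervals (scipy 1.17.1), covering counting error only. The call rule was tested on simulated Poisson counts without variation between cells, libraries or barcode sets. That test therefore covers counting error only and cannot show how the rule behaves under such variation. KO and WT were not compared. All 32 genes and the companion lists were eligible for naming, and they were chosen with earlier results of these data known. Alternatives covered cell filters, clustering resolution, scaling, thresholds and each barcode set alone.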

Additional observations from a re-analysis of the deposited data

How the results depend on the processing

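No paired analysis was possible because the cells of both genotypes lie in 1 matrix without a map to samples. No called ratio of a single gene changed direction, though ratios that were not called did. With each barcode set alone a called ratio could not change direction, because a call needs the same direction in both sets. Other thresholds leave the ratio itself unchanged, so those alternatives could not change a direction either. The median log2 ratio of the 32 rows against osteoblast-like cells, 0.15, was -0.15 without set 2 (-0.09 over all genes), and that between set 2 and set 1 of osteoblast-like cells, 0.05, was -0.01 with the listed genes kept in clustering and -0.15 without the 5% deepest cells. The osteoblast-like class, 567 cells as reported, held 277 to 555 cells under the 9 other cell filters and clusterings, and the fibroblast-like class, 3368 cells, held 2091 to 3452. With another clustering seed alone they held 326 and 2091 cells, and 5 rows were then higher than in osteoblast-like cells and 23 than in fibroblast-like cells. The counts given next moved by more than 1.5 times from their reported values, and the cause was not tested. Rows lower in chondrocyte-like than in osteoblast-like cells numbered 0 with at least 1000 genes and 2000 UMIs per cell, at resolution 0.5, with components centred per set before clustering, with TMM scaling and without set 1, and 4 without set 2. Rows lower than in blood cells numbered 1 with the stricter cell filter and without set 1. Without set 2, 13 rows were higher than in fibroblast-like cells and 1 was highest of all classes in chondrocyte-like cells. Rows higher in the cluster led by Matn1 than in that led by Msmp numbered 2 without set 1 and with TMM, and 0 without set 2. Between the sets, 2 rows were higher in set 2 of fibroblast-like cells with the stricter filter, 1 of osteoblast-like cells with a looser filter (200 genes, 500 UMIs) or at most 5% mitochondrial UMIs, and 1 was lower in osteoblast-like cells without the 5% deepest cells.

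With a threshold of 1.5, 4 rows were lower than in osteoblast-like, 3 than in fibroblast-like and 4 than in blood cells, 2 were higher and 3 lower in the cluster led by Matn1, and 21 were higher in set 2 of chondrocyte-like cells, 1 higher and 1 lower in osteoblast-like cells, and 4 higher and 1 lower in fibroblast-like cells. With a threshold of 3, 3 rows were higher and 0 lower than in osteoblast-like cells, 10 higher and 1 lower than in blood cells, and 2 were higher in set 2 of chondrocyte-like and 0 of fibroblast-like cells. The alternatives without the deepest cells and with either chondrocyte-like cluster alone were chosen after seeing the data. With the cluster led by Matn1 alone 0 rows were lower than in osteoblast-like cells. With that led by Msmp alone 2 were lower than in osteoblast-like, 2 than in fibroblast-like and 1 than in blood cells. The other 230 counts stayed within 1.5 times. Of the ratios of single genes 1944 kept their status, called or not called, 67 gained a call and 58 lost one. A further 10 had no value, since a class held 0 UMIs. The 1944 include ratios that were not called in either run, so they do not count the calls that held. Depth limits rare genes most: Aldoc and Car9 rest on 1 and 3 UMIs in fibroblast-like cells.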
